A study of Pseudotsuga menziesii with 75 samples.

Results

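Transcripts of the hydrogen peroxide and superoxide scavenging enzymes were followed in needles of Douglas-fir (Pseudotsuga menziesii), a conifer of western North America, through one growing season in the field. The enzymes were 10 Arabidopsis loci: the ascorbate peroxidases APX1 (AT1G07890), APX2 (AT3G09640) and TAPX (AT1G77490), the catalases CAT1 (AT1G20630) and CAT2 (AT4G35090), the superoxide dismutases CSD1 (AT1G08830), CSD2 (AT2G28190) and MSD1 (AT3G10920), and the glutathione reductases GR1 (AT3G24170) and GR2 (AT3G54660). A contig, which is an assembled transcript, was taken as a member when the Arabidopsis (TAIR) locus given for it by the authors was one of these 10. This matching used no measured value and gave 33 contigs of 59189, but the 10 loci were chosen with earlier results of these data known. APX2 was named for 10 contigs, CSD1 for 7, CAT2 for 4, TAPX for 3, APX1, MSD1 and GR2 for 2 each, and CAT1, CSD2 and GR1 for 1 each. A locus name states the most similar Arabidopsis gene and does not show that the Douglas-fir gene has the same role.

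The 75 libraries came from 25 adult trees of 2 provenances, Salmon Arm from interior and Cameron Lake from coastal British Columbia, which grew at 2 sites in Germany, the lowland Wiesloch and the mountain site Schluchsee. Salmon Arm had 7 trees at Wiesloch and 6 at Schluchsee, and Cameron Lake had 5 and 7. Needles formed in the year before were cut from the sunlit upper crown in May, June, July and September of 2010, which gave 16 groups of 4 to 5 libraries (8 to 10 per site and month). No tree was treated, and all libraries of one site and month come from one date. The Wiesloch dates were 12 May, 16 June, 14 July and 8 September, and each Schluchsee date came later, by 15, 14, 14 and 7 days in turn, so that month and day, and site and day, cannot be told apart. The labels call every sampling noon, but the sample times of 62 libraries, read as seconds after midnight, ran from 12.8 to 15.7 h, with medians of 13.2 to 14.7 h for the site and month sets. In May the median was 14.5 h at Wiesloch and 13.5 h at Schluchsee. Only 3 of 8 Wiesloch libraries in June and 6 of 10 Schluchsee libraries in May had a time. A call lost among the libraries with a clock time therefore does not by itself show a dependence on the hour. The labels used here state no temperature, light or water status.

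Superoxide and hydrogen peroxide form in leaves when the photosynthetic electron transport chain passes electrons to oxygen, and hydrogen peroxide is also made in peroxisomes during photorespiration. Superoxide dismutases turn superoxide into hydrogen peroxide, which catalases break down in peroxisomes and ascorbate peroxidases reduce with ascorbate in the cytosol, the plastid and other compartments. Oxidised ascorbate is restored directly or with glutathione, and glutathione reductases return oxidised glutathione to its reduced form. In evergreen conifers this system is known for its seasonal course, since needles stay exposed to light when cold or drought slows carbon fixation.

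Total counts ran from 18.54 M to 47.51 M per library (median 34.05 M). Levels are given as CPM, which scales the counts of a library to a common total, and are compared only within a contig because contig lengths were not used here. Of the 33 contigs, 25 averaged 35.5 CPM or more and 8 averaged 2.59 CPM or less, and all 33 passed the filter on low counts. No deposited value was 0, and the lowest value of a library was mostly 2, so contigs with a few reads lie close to a floor of unstated origin. Among libraries of other months at the same site and provenance, those of one tree resembled each other most in 72 of 72 cases. However, 4 libraries had a highest correlation with their own tree under 0.6. These were Cameron Lake tree 13 in May and tree 16 in July, and Salmon Arm trees 11 and 15 in July, all at Wiesloch. Without them, 8 of 8 member calls from June to July and 19 of 21 from July to September at Wiesloch remained, as did 4 of 7 between the sites in May and 14 of 15 in July. Of 4 mesophyll marker loci 3 were measured, at a summed 3600 to 10000 CPM in every library, as a needle sample should show. The xylem markers (4 of 5 measured) summed to 7.42 to 66.6 CPM, phloem (1 of 2) to 0.296 to 12.9 CPM and dividing cells (1 of 4, AUR1) to 8.22 to 44.7 CPM. Of 4 guard cell markers 2 were measured, and they did not move together. SLAC1, a guard cell anion channel, had a median of 10.0 CPM at Wiesloch in July against 41.1 to 82.2 CPM in the other 7 sets of libraries, while FAMA, a factor of guard cell formation, had 13.5 CPM there against 6.74 to 17.9 CPM. AUR1 was at its highest in that July set, with a median of 34.4 CPM. In whole needles, fewer cells of a type and less RNA per cell cannot be told apart, and the part of cell composition in the results below was not tested.

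Member contigs changed most often between July and September at Wiesloch and differed most often between the sites in July. From May to June at Wiesloch 2 of 33 contigs were past an adjusted p of 0.05 by edgeR's quasi-likelihood test with Benjamini-Hochberg adjustment, against 7.77% of all contigs tested, and both were higher in June (3.95% of all contigs higher, 3.82% lower). From June to July there 8 were past it (25.1%), 6 of them higher (12.3%) and 2 lower (12.8%). Into September 21 were past it (42.0%), 12 higher (20.2%) and 9 lower (21.7%). Of these 9, 8 were contigs of APX2, and the 12 came from 7 loci. From May to June at Schluchsee 6 were called (14.1%), 6 higher (7.11%) and 0 lower (6.95%). The step from June to July at Schluchsee gave 11 (17.0%), 3 higher (8.88%) and 8 lower (8.16%, all of APX2), and the step from July to September gave 5 (7.67%), 4 higher (3.76%) and 1 lower (3.91%). At Schluchsee, set against Wiesloch, 7 members differed in May (7.47%), 0 higher (2.89%) and 7 lower (4.58%). In June there were 6 (5.88%), 5 higher (2.89%) and 1 lower (2.98%). July had 15 (46.1%), 6 higher (22.9%) and 9 lower (23.3%), while September had 10 (10.2%), 8 higher (4.83%) and 2 lower (5.34%). Month by site, the test for unlike courses at the sites, was passed by 16 members (34.9%). As shares of the members, the Wiesloch steps gave 6.06%, 24.2% and 63.6%, the Schluchsee steps 18.2%, 33.3% and 15.2%, the site differences 21.2%, 18.2%, 45.5% and 30.3%, and month by site 48.5%. The July site difference and the first 2 steps at Wiesloch were thus near the background, and nothing about the enzymes can be read from their number alone. These counts are not over independent genes, since contigs of one locus often moved together; for example, the 6 contigs that rose from June to July at Wiesloch were all of APX2. With the tree as a block, the Wiesloch steps gave 4, 14 and 24 member calls, where 17.3%, 35.8% and 51.9% of all contigs were called. The Schluchsee steps then gave 17, 20 and 7, against 27.0%, 23.9% and 13.5% of all contigs, and month by site gave 21, against 46.8%.

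**Figure D1:**
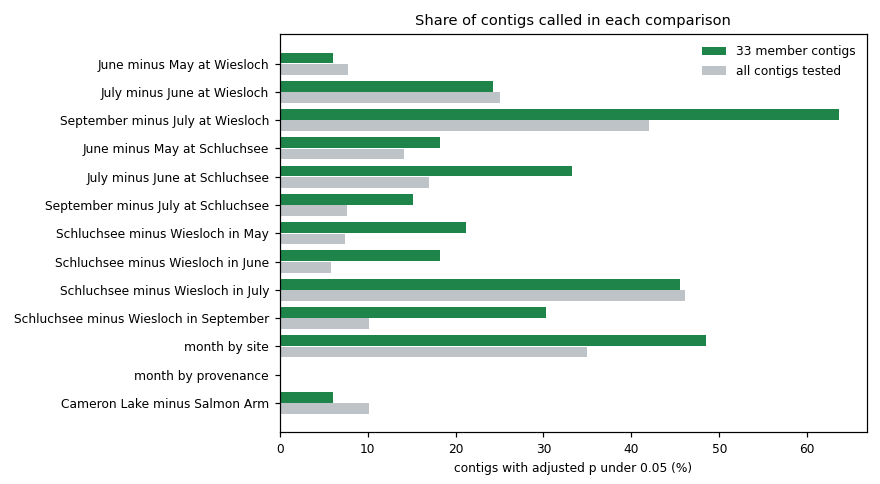
Percent of contigs with an adjusted p under 0.05 (x axis) in each of the 13 comparisons (y axis), green for the 33 member contigs and grey for all contigs tested (no error bars, since each bar is a single count). In percentage points, the members' share stands furthest above the background from July to September at Wiesloch (63.6% against 42.0%). Most of the members lower in that step are contigs of APX2. Between the sites the share is also above the background in May (21.2% against 7.47%), June (18.2% against 5.88%) and September (30.3% against 10.2%). In July between the sites it is about the same as the background (45.5% against 46.1%).

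**Figure D2:**
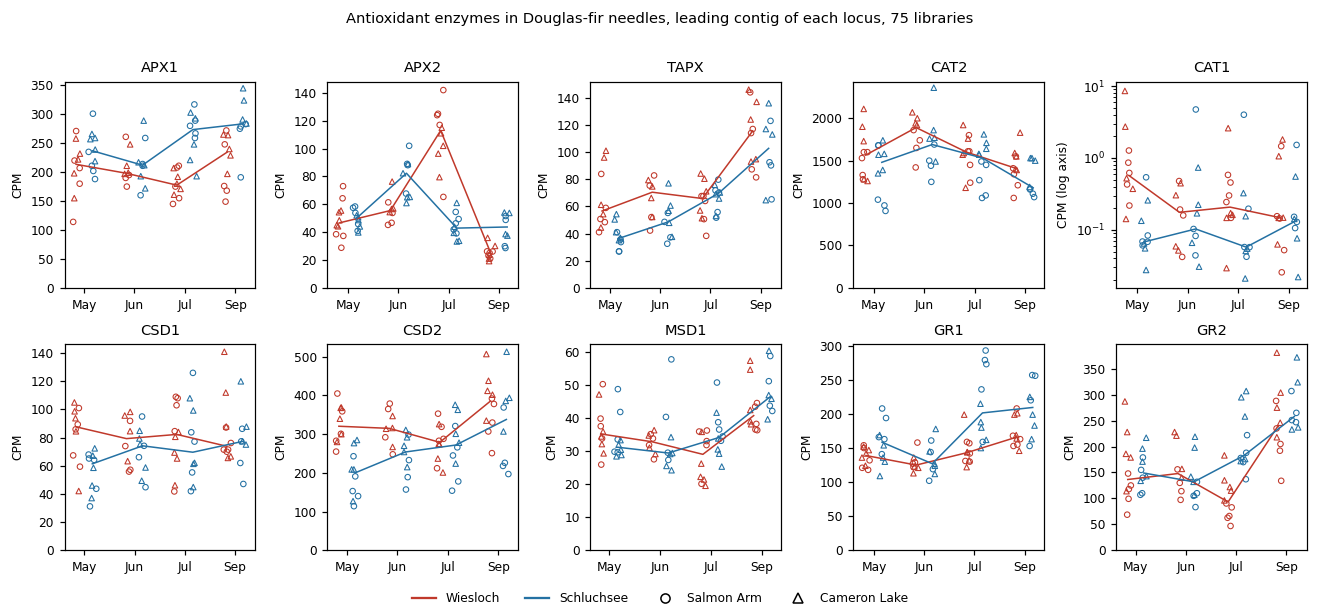
CPM (y axis, linear from 0 except CAT1, which has a log axis) of the leading contig of each locus, the one with the highest mean count, by month (x axis). Each open symbol is one of the 75 libraries, coloured by site and shaped by provenance, and lines join the medians of 8 to 10 libraries. APX2 peaks in July at Wiesloch and in June at Schluchsee, GR2 is lowest in July at Wiesloch, and TAPX, MSD1 and GR2 are at their highest median in September at both sites.

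In the leading contigs of the superoxide dismutases, which act first in the chain, the steps between months that passed were rises into September. May was not tested against September. MSD1, the mitochondrial manganese enzyme, was represented by isotig12810. At Wiesloch it lay between 25.9 and 50.2 CPM in May (median 35.2), 27.5 and 36.3 in June (32.8), 19.5 and 36.2 in July (29.0) and 36.3 and 57.3 in September (40.7). The September libraries were all above the July libraries, without overlap, and MSD1 was higher in September in 8 of 8 trees sampled in both months. The log2 fold change was 0.61 (SE 0.12, adjusted p = 4.5e-05 by the same test, as below). At Schluchsee the medians were 31.2, 29.4, 34.1 and 46.4 CPM from May to September, and the step into September was 0.46 (SE 0.13, adjusted p = 0.016, higher in 6 of 7 trees). This step lost its call without Cameron Lake tree 15 (adjusted p = 0.11), Salmon Arm tree 13 (0.076) or Salmon Arm tree 14 (0.061), all of Schluchsee, and without the 3 libraries with a lowest value of 4 (0.37, adjusted p = 0.16). In July MSD1 was higher at Schluchsee by 0.33 (SE 0.12, adjusted p = 0.024), with overlapping libraries, and this call was lost without any of 6 trees (adjusted p 0.051 to 0.082) with the counts of both MSD1 contigs summed (0.23, adjusted p = 0.11) and among the libraries with a clock time, both with it as a covariate (0.33, adjusted p = 0.075) and without (0.32, adjusted p = 0.065). It was 0.35 without the libraries that stood apart (adjusted p = 0.038).

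CSD2, the copper and zinc enzyme of the chloroplast in Arabidopsis, differed between the sites in spring. In May GAEK01024390.1 lay between 255 and 405 CPM at Wiesloch (median 321) and between 114 and 285 CPM at Schluchsee (median 200). The Schluchsee libraries were mostly lower, with an overlap between 255 and 285 CPM, and the difference was -0.76 (SE 0.14, adjusted p = 0.00026). Later in the season the medians lay closer, at 315 and 254 CPM in June and 279 and 272 CPM in July, where the difference of -0.04 (SE 0.14) did not pass the test. From July to September CSD2 rose at Wiesloch to a median of 385 CPM by 0.43 (SE 0.14, adjusted p = 0.01, 7 of 8 trees), and the same step at Schluchsee, 0.24 (SE 0.15, adjusted p = 0.36, 6 of 7 trees), did not pass. The Wiesloch step was not called without Cameron Lake tree 9 (adjusted p = 0.053) or Salmon Arm tree 9 (0.056) of that site. The course differed between the sites (adjusted p = 0.02), but not without Cameron Lake tree 15 of Schluchsee (0.077), or among the libraries with a clock time, with it as a covariate (0.23) or without (0.15). Among the 62 libraries with a clock time, the May difference was -0.56 with clock time as a covariate (adjusted p = 0.17).

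CSD1, the cytosolic copper and zinc enzyme, showed the same spring difference in its leading contig and no step between months of that contig passed. GAEK01012966.1 lay between 42.1 and 105 CPM at Wiesloch in May (median 87.7) and between 31.2 and 72.4 CPM at Schluchsee (median 61.4). The ranges overlapped, and the difference was -0.58 (SE 0.19, adjusted p = 0.041). The second contig, GAEK01012967.1, was lower at Schluchsee in May by 0.71 on the log2 scale (SE 0.21, adjusted p = 0.023), a call lost without the libraries that stood apart (-0.57, adjusted p = 0.1) and without either of 2 trees (0.052 and 0.098). It was also lost among the libraries with a clock time, with it as a covariate (-0.65, adjusted p = 0.36) and without (-0.84, adjusted p = 0.11). The call of the leading contig was lost without any of 12 trees (adjusted p 0.057 to 0.086), without the libraries that stood apart (-0.54, adjusted p = 0.093) and among those with a clock time, with it as a covariate (-0.40, adjusted p = 0.55) and without (-0.56, adjusted p = 0.23). From June on, the medians of GAEK01012966.1 stayed between 69.6 and 82.3 CPM at both sites. Of the other 5 CSD1 contigs, isotig04518, isotig04519 and isotig48690 were called in no comparison. The low isotig83972 had a median of 1.74 CPM in May and 3.06 CPM in June at Wiesloch (0.80, SE 0.18, adjusted p = 0.0018), and among the libraries with a clock time this step did not pass (0.79, adjusted p = 0.13). In June it was lower at Schluchsee (-0.59, SE 0.18, adjusted p = 0.04), a call lost without any of 13 trees (adjusted p 0.052 to 0.089) and among the libraries with a clock time (-0.55, adjusted p = 0.42). From July to September at Wiesloch its median went from 3.03 to 2.13 CPM, and it was lower in 8 of 8 trees. For isotig101381, with 0.523 CPM on average, the step into September at Schluchsee of -0.81 (SE 0.26, adjusted p = 0.039) was lost with the tree as a block (-0.78, adjusted p = 0.054), with the lowest values set to 0 (-0.92, adjusted p = 0.1), among the libraries with a clock time, with it as a covariate (-0.79, adjusted p = 0.085) and without (-0.81, adjusted p = 0.072), without the libraries that stood apart (-0.79, adjusted p = 0.055) and without any of 9 trees (adjusted p up to 0.15).

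APX2 gave the largest seasonal change among the leading contigs above the floor, and its course differed between the sites. In Arabidopsis, APX2 encodes a cytosolic ascorbate peroxidase that is nearly silent in unstressed leaves and is induced by heat and excess light. At Wiesloch the leading contig GAEK01022660.1 lay between 28.8 and 73.0 CPM in May (median 46.8), 45.2 and 76.3 in June (55.5), 65.3 and 142 in July (113) and 19.2 and 35.9 in September (24.4). The July libraries were mostly above those of May and June, with some overlap, and all of them were above the September libraries. The rise into July was 0.94 (SE 0.15, adjusted p = 1e-06, 7 of 7 trees), and the fall into September was -2.10 (SE 0.14, adjusted p = 2.2e-19, lower in 8 of 8 trees), which is a 4.28-fold decrease. Both held without the libraries that stood apart (0.86, adjusted p = 4.1e-05, and -2.0, adjusted p = 1.8e-16), as they did with clock time as a covariate (0.96, adjusted p = 0.0047, and -1.99, adjusted p = 1.3e-14).

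At Schluchsee APX2 was highest in the June sampling of 30 June, 14 days before the July sampling at Wiesloch. GAEK01022660.1 lay between 39.8 and 58.4 CPM in May (median 49.7), 60.9 and 102 in June (82.3), 33.3 and 61.0 in July (42.9) and 28.6 and 54.1 in September (43.7). All June libraries were above all May libraries, and the June and July ranges touched between 60.9 and 61.0 CPM. The rise into June was 0.69 (SE 0.14, adjusted p = 0.00022, 9 of 9 trees) and the fall into July -0.84 (SE 0.14, adjusted p = 6.5e-06, 6 of 6 trees lower), and July and September did not differ beyond their spread (-0.05, SE 0.14, adjusted p = 0.91). The sites did not differ beyond their spread in May (0.01, SE 0.14, adjusted p = 0.99). Schluchsee was lower in July by 1.28 on the log2 scale (SE 0.14, adjusted p = 8.6e-12), a 2.43-fold difference without overlap (-1.2 without the libraries that stood apart, adjusted p = 2.3e-09), and higher in September by 0.77 (SE 0.14, adjusted p = 0.00013). The June difference of 0.50 (SE 0.15, adjusted p = 0.034) was lost without any of 9 trees (adjusted p 0.051 to 0.076) and among the libraries with a clock time (0.54, adjusted p = 0.35). The difference in course between the sites had an adjusted p of 8.5e-13. At Wiesloch in July the Salmon Arm libraries averaged 115 ± 29.2 CPM (SD, n = 5) and the Cameron Lake libraries 101 ± 14.0 CPM (SD, n = 5). No member passed the test for unlike courses of the provenances, which only 0.00338% of all contigs passed.

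The 10 contigs named APX2 fell into a set that moved together and 4 low contigs. Isotig02008, isotig02009, isotig02012, isotig02013 and isotig02014 averaged 38.5 to 41.7 CPM and correlated with GAEK01022660.1 at r = 0.95 to 0.97 over the 75 libraries, which share depth and month. Their falls from July to September at Wiesloch were between -2.20 and -2.27, and their July site differences between -1.41 and -1.48. How the authors' counting divided reads among similar contigs is not given in the sources used here, so the value of each is uncertain in that respect. Of the low contigs, GAEK01014810.1 and GAEK01014811.1 also fell into September at Wiesloch, with log2 fold changes of -3.24 (SE 0.53, adjusted p = 9.5e-07) and -2.69 (SE 0.48, adjusted p = 6.4e-06), from medians of 1.14 and 0.659 CPM in July. GAEK01014811.1 alone of the APX2 contigs passed from May to June at Wiesloch (1.51, SE 0.49, adjusted p = 0.045), a call lost without any of 12 trees, with the lowest values set to 0 and among the libraries with a clock time. GAEK01029316.1 was highest in June at Schluchsee (median 3.82 CPM) and fell into July by 1.69 (SE 0.33, adjusted p = 9.5e-05), but at Wiesloch its July median was 1.43 CPM against 2.02 CPM in June. The tenth, isotig60488, was called in no comparison. With the counts of all 10 contigs summed, the Wiesloch fall was -2.27 (adjusted p = 5.3e-23).

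APX1, the main cytosolic ascorbate peroxidase of Arabidopsis, kept a narrow range, and its median at Wiesloch was lowest in July, when that of APX2 was highest. GAEK01019910.1 had medians of 213, 198, 177 and 234 CPM from May to September at Wiesloch and 237, 212, 274 and 284 CPM at Schluchsee. In July it lay between 145 and 211 CPM at Wiesloch and 193 and 317 CPM at Schluchsee, so that the ranges overlapped at their ends, and it was higher at Schluchsee by 0.56 (SE 0.12, adjusted p = 5.6e-05), or 0.64 without the libraries that stood apart (adjusted p = 9.3e-05). The second contig, isotig40761, gave 0.65 (SE 0.11, adjusted p = 1.2e-06) for the same difference. Into September APX1 rose at Wiesloch by 0.29 (SE 0.12, adjusted p = 0.04, 7 of 8 trees), and it was higher at Schluchsee in September by 0.36 (SE 0.12, adjusted p = 0.046). Neither of these held throughout. The first was lost without any of 7 trees (adjusted p 0.052 to 0.17), with both contigs summed (0.21, adjusted p = 0.11) and without the 3 libraries with a lowest value of 4 (0.26, adjusted p = 0.077). The second was lost without any of 16 trees (0.050 to 0.094), without those 3 libraries (0.32, adjusted p = 0.19) and among the libraries with a clock time, with it as a covariate (0.33, adjusted p = 0.11) and without (0.34, adjusted p = 0.1). With the tree as a block the rise from June to July at Schluchsee passed (0.37, adjusted p = 0.026, against 0.32, SE 0.12, adjusted p = 0.056 without it, 5 of 6 trees), and so did the difference in course between the sites (adjusted p = 0.018, against 0.054 without it).

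TAPX, which in Arabidopsis is bound to the thylakoid membrane, rose into September at both sites. GAEK01011842.1 lay between 41.0 and 101 CPM at Wiesloch in May (median 56.6), 42.2 and 82.8 in June (70.4), 38.3 and 84.2 in July (65.8) and 81.4 and 146 in September (116). The step into September was 0.85 (SE 0.16, adjusted p = 7.9e-06, 8 of 8 trees). At Schluchsee the medians were 36.3 CPM in May, 48.6 in June, 69.6 in July and 103 CPM in September. The last step, 0.59 (SE 0.16, adjusted p = 0.014, 7 of 7 trees), was lost without Salmon Arm tree 13 of that site (0.53, adjusted p = 0.063). The earlier Schluchsee steps of 0.38 (SE 0.16, adjusted p = 0.099) and 0.43 (SE 0.16, adjusted p = 0.054) passed with the tree as a block (0.34, adjusted p = 0.0089, and 0.41, adjusted p = 0.0055). In May the Schluchsee libraries, at 26.8 to 54.3 CPM, were lower than those of Wiesloch (-0.75, SE 0.16, adjusted p = 0.001), with overlap between 41.0 and 54.3 CPM. Among the libraries with a clock time this was -0.78 with clock time as a covariate (adjusted p = 0.052) and -0.61 without it (adjusted p = 0.087). The course differed between the sites over all 75 libraries (adjusted p = 0.014), and over the 62 with a clock time it passed with that covariate (adjusted p = 0.043) but not without it (adjusted p = 0.081). The other TAPX contigs, isotig23421 and isotig23422, followed GAEK01011842.1 at r = 0.99 and 0.98 over the 75 libraries and were also called lower in May.

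No step between months and no site difference passed for the leading contig of CAT2. CAT2, in Arabidopsis the main leaf catalase, which removes hydrogen peroxide from photorespiration, was represented by GAEK01005769.1. Its medians were 1560, 1890, 1600 and 1410 CPM from May to September at Wiesloch and 1480, 1690, 1530 and 1180 CPM at Schluchsee, and the libraries of each month overlapped with those of the next. The steps had log2 fold changes of 0.22, -0.21 and -0.14 at Wiesloch and 0.25, -0.18 and -0.19 at Schluchsee (SE 0.10 to 0.11). The first step was upward in 6 of 7 and 8 of 9 trees, and the later ones were upward in 1 of 6 to 1 of 8 trees at either site. With the tree as a block the first Schluchsee steps passed (0.30, adjusted p = 0.027, and -0.33, adjusted p = 0.038). With the counts of the 4 CAT2 contigs summed, the same steps passed (0.30, adjusted p = 0.02, and -0.28, adjusted p = 0.025), as did the Wiesloch step into September (-0.27, adjusted p = 0.014) and the July site difference (-0.24, adjusted p = 0.029). Among the further contigs, isotig23880 fell from June to July at Wiesloch (-0.33, SE 0.13, adjusted p = 0.041) and isotig23879 was called in no comparison. GAEK01036990.1 had medians of 0.116 CPM in July and 0.309 CPM in September at Wiesloch (adjusted p = 0.015). This contig averaged 0.369 CPM, was at the lowest values in 27 of 75 libraries and ranged from 0.122 to 5.06 CPM in that September set. The site differences of GAEK01005769.1 were -0.17, -0.14, -0.11 and -0.16 from May to September (SE 0.10 to 0.11).

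CAT1, another peroxisomal catalase, lay near the lowest values in most libraries. GAEK01030613.1 was at or below the lowest common value of its library in 28 of 75 libraries and had medians from 0.0576 to 0.571 CPM. Its highest libraries were 8.57 CPM (Cameron Lake tree 13 of Wiesloch in May) and 4.73 and 4.00 CPM (Salmon Arm tree 13 of Schluchsee in June and July). The May difference between the sites, -3.26 (SE 0.89, adjusted p = 0.014), was lost without that Wiesloch tree (-2.57, adjusted p = 0.064), whose May library is also one of the 4 that stood apart. The difference in course (adjusted p = 0.023) was lost without either of these trees (0.064 and 0.13), without the libraries that stood apart (0.084) and with the lowest values set to 0 (0.082). Both were lost among the libraries with a clock time, with it as a covariate (0.29 and 0.21) and without (0.11 and 0.15). The step from May to June at Wiesloch of -2.54 (adjusted p = 0.073, lower in 7 of 7 trees) passed with the tree as a block (-1.97, adjusted p = 0.023), by DESeq2 (adjusted p = 0.027) and without Salmon Arm tree 13 of Schluchsee (adjusted p = 0.023), but not with the lowest values set to 0 (adjusted p = 0.19) or among the libraries with a clock time (adjusted p = 0.49).

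GR2, whose Arabidopsis enzyme reduces glutathione in plastids and mitochondria, ran opposite to APX2 at Wiesloch. GAEK01026944.1 lay between 68.7 and 287 CPM there in May (median 136), 97.3 and 228 in June (148), 46.9 and 183 in July (93.3) and 134 and 381 in September (240). The fall into July was -0.68 (SE 0.16, adjusted p = 0.0012, lower in 7 of 7 trees) and the rise into September 1.36 (SE 0.16, adjusted p = 1.3e-10, 8 of 8 trees), a 2.57-fold increase. Without the libraries that stood apart the values were -0.80 (adjusted p = 0.00045) and 1.51 (adjusted p = 2.3e-10). Among the libraries with a clock time, the fall into July was -0.38 with clock time as a covariate (adjusted p = 0.37) and -0.40 without it (adjusted p = 0.35). Only 3 of the 8 June libraries of Wiesloch had a clock time.

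At Schluchsee GR2 rose into July instead. The medians were 149, 132, 183 and 258 CPM from May to September, with ranges of 107 to 217, 83.3 to 219, 137 to 307 and 233 to 372 CPM. The step from June to July was 0.67 (SE 0.16, adjusted p = 0.0019, 6 of 6 trees), and that into September, 0.43 (SE 0.16, adjusted p = 0.1, 7 of 7 trees), passed with the tree as a block (0.52, adjusted p = 0.00063). In July GR2 was 2.18-fold higher at Schluchsee (1.13, SE 0.16, adjusted p = 2.1e-08, and 1.27 without the libraries that stood apart, adjusted p = 1.9e-08), with ranges that overlapped between 137 and 183 CPM, and the sites did not differ beyond the spread in May, June or September. The course differed between the sites (adjusted p = 1.2e-05). GR1, the cytosolic and peroxisomal enzyme, rose at Schluchsee from a median of 127 CPM in June to 202 CPM in July (0.65, SE 0.11, adjusted p = 6e-06, 6 of 6 trees), while the Wiesloch medians were 125 and 143 CPM (0.18, SE 0.11, adjusted p = 0.23). In July isotig23229 was higher at Schluchsee by 0.53 (SE 0.10, adjusted p = 2.3e-05), or 0.51 without the libraries that stood apart (adjusted p = 0.00037). With the tree as a block, the course of GR1 differed between the sites (adjusted p = 0.0073, against 0.058 without it), and it rose into July and into September at Wiesloch (0.21, adjusted p = 0.042, and 0.21, adjusted p = 0.023). The fall from May to June at Schluchsee also passed with the block (-0.21, adjusted p = 0.035, against -0.22, adjusted p = 0.18 without it, lower in 6 of 9 trees).

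**Figure D3:**
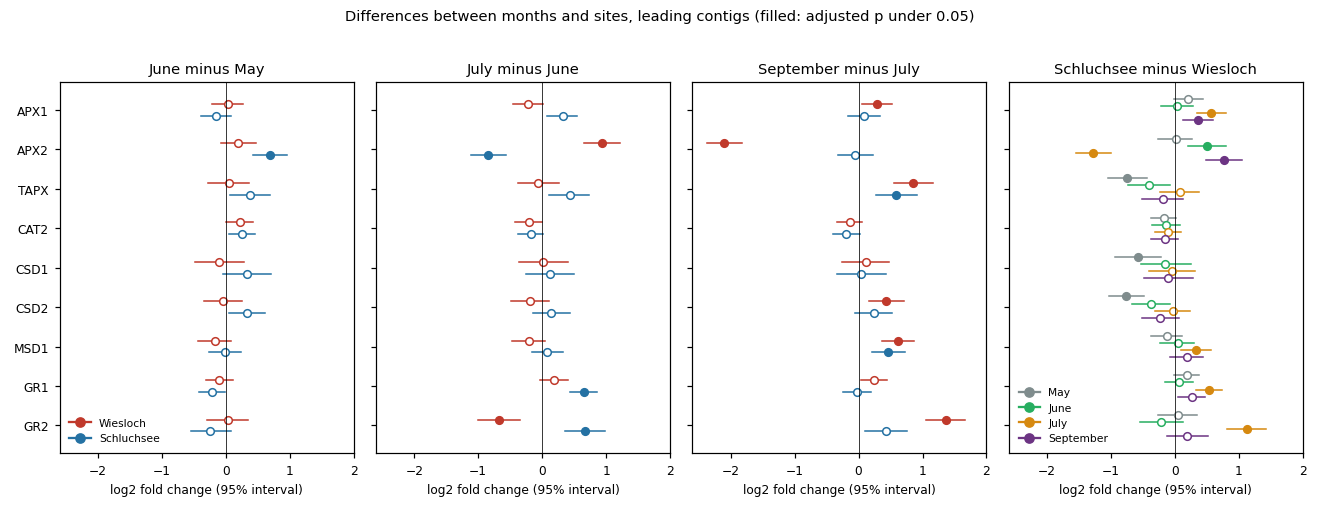
Log2 fold changes (x axis, points with 95% intervals) of the leading contigs of 9 loci (y axis) for the 3 steps between months at each site and for Schluchsee minus Wiesloch in each month. Filled points have an adjusted p under 0.05, and CAT1 is left out because it lies near the lowest values in most libraries. APX2 and GR2 stand on opposite sides of 0 in both July steps at Wiesloch (0.94 and -0.68, then -2.10 and 1.36) and in the July site difference (-1.28 and 1.13).

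**Figure D4:**
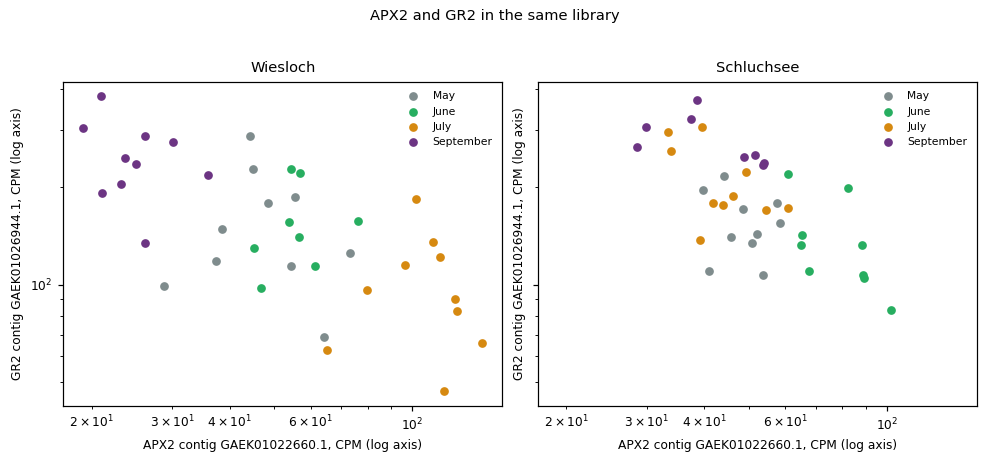
CPM of the leading GR2 contig (y axis, log) against that of the leading APX2 contig (x axis, log) in the same library, coloured by month, with a panel for each site. At Wiesloch the July libraries lie at the lower right (APX2 65.3 to 142 CPM) and the September libraries at the upper left (APX2 19.2 to 35.9 CPM), and at Schluchsee June and September are at the ends.

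The leading contigs of APX2 and GR2 correlated at r = -0.74 over the 16 group means of log2 CPM, which share libraries and depth. On the same scale, APX2 correlated with TAPX at -0.56 and with MSD1 at -0.66. The copper and zinc dismutases CSD1 and CSD2 correlated at 0.87, CSD2 and TAPX at 0.79, and APX1 with GR2 at 0.73 and with GR1 at 0.70. These values describe 16 points and were not tested.

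The contigs of GR2 stood in a ratio that differed more between trees than within them. Isotig37937 and GAEK01026944.1 carry the same locus but correlated at r = 0.24 over the 75 libraries. The log2 ratio of their counts had an SD of 0.82 between the means of the 25 trees and 0.23 within trees, and in 20 of the 22 trees with more than 1 library it varied by less than 0.5. The tree means were below -1.2 in 14 trees, between -0.8 and 0 in 9 trees and above 0 in 2 trees, which were Salmon Arm trees 9 (0.80) and 14 (0.61) of Wiesloch. The exceptions were Salmon Arm tree 11, at -0.81 in July and -1.77 and -1.91 in May and September, and Salmon Arm tree 15, at -0.43 in July and -1.88 in May and June, both of Wiesloch and both among the July libraries that stood apart. With the counts of both contigs summed, GR2 fell into July (-0.64, adjusted p = 1.7e-05) and rose into September (1.2, adjusted p = 7.8e-14) at Wiesloch, and was higher at Schluchsee in July by 0.78 (adjusted p = 3.3e-08) and lower in June (-0.44, adjusted p = 0.012). Isotig37937 by itself passed only in the Wiesloch step into September (1.23, SE 0.28, adjusted p = 0.00026). Of the 16 contigs above 10 CPM that were not the leading contig of their locus, 12 correlated with it at r of at least 0.85, and the 4 others were isotig37937 and the CSD1 contigs isotig04518, isotig04519 and isotig48690 (0.60, 0.61 and 0.43).

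**Figure D5:**
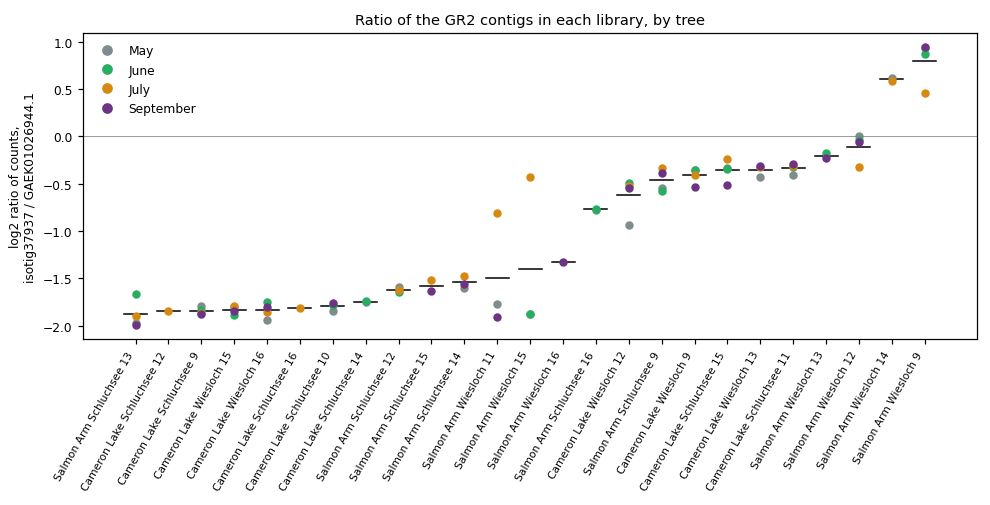
Log2 ratio of the counts of isotig37937 to those of GAEK01026944.1, both of GR2 (y axis), in each library (points, coloured by month) by tree (x axis, ordered by the tree mean, which is drawn as a line). The libraries of a tree lie close together, at tree means from -1.88 to 0.80, except the July libraries of Salmon Arm trees 11 and 15 of Wiesloch.

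Between the provenances, 2 of the 33 member contigs differed (10.1% of all contigs tested), both higher in Cameron Lake (4.36% of all contigs higher, 5.77% lower), on counts summed per tree with site and the share of each month as covariates. GAEK01005769.1 of CAT2 lay between 1130 and 1620 CPM in the 13 Salmon Arm trees (median 1440) and between 1350 and 1860 CPM in the 12 Cameron Lake trees (median 1680). It was higher in Cameron Lake by 0.27 (SE 0.06, adjusted p = 0.013), a 1.21-fold difference with overlapping trees. GAEK01026944.1 of GR2 had medians of 150 CPM (59.2 to 288) and 203 CPM (152 to 307), and was higher in Cameron Lake by 0.52 (SE 0.13, adjusted p = 0.016). This GR2 difference was 0.50 without the libraries that stood apart (adjusted p = 0.066), 0.40 without the month shares as covariates (adjusted p = 0.16) and 0.36 with both contigs summed (adjusted p = 0.014). Of the mesophyll markers, CAB1 (1.36, SE 0.36, adjusted p = 0.021) and RCA (0.30, SE 0.08, adjusted p = 0.028) were also higher in Cameron Lake, and the phloem marker APL was lower (-1.72, SE 0.20, adjusted p = 4.2e-05). The seasonal course differed between the provenances for 0 of 33 members by edgeR and by DESeq2 (0.00338% of all contigs tested by edgeR), and none had an unadjusted p under 0.05. In that test 2668 of all contigs had an unadjusted p under 0.05.

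Among enzymes that make and recycle ascorbate, more fell than rose into July at Wiesloch, and more rose than fell at Schluchsee. Of 15 loci for ascorbate recycling and synthesis 13 were measured, each by the contig with the highest mean count. The list was chosen with earlier results of these data known, so the counts describe these loci and are not a test. At Wiesloch 7 fell and 1 rose from June to July (median -0.42, against 0.01 for all contigs tested), where 12.8% of all contigs fell and 12.3% rose. Into September 7 rose and 1 fell (0.60, against -0.02), where 20.2% of all contigs rose and 21.7% fell. At Schluchsee 6 rose and 1 fell from June to July (0.35, against 0.00), where 8.88% of all contigs rose and 8.16% fell. In July 7 were higher and 1 lower than at Wiesloch (0.57, against -0.01), where 22.9% of all contigs were higher and 23.3% lower. The other loci, 5, 5, 6 and 5 in these comparisons, did not pass. The Wiesloch and July counts were the same without the libraries that stood apart. VTC1, which makes GDP-mannose at the start of the plant ascorbate pathway, lay between 17.2 and 36.8 CPM at Wiesloch in July and 46.9 and 98.6 CPM at Schluchsee. The July libraries of the sites did not overlap, and the difference was 1.74 (SE 0.15, adjusted p = 3.2e-15), or 1.67 without the libraries that stood apart (adjusted p = 1.3e-11). GME, which converts GDP-mannose to GDP-galactose, differed by 1.44 in July (SE 0.14, adjusted p = 3e-13), and VTC2, the GDP-galactose phosphorylase, fell into July at Wiesloch (-0.92, SE 0.15, adjusted p = 1.2e-06). MDAR6, a plastid and mitochondrial monodehydroascorbate reductase, rose into September at Wiesloch (2.05, SE 0.22, adjusted p = 1.3e-11) and at Schluchsee (1.02, SE 0.22, adjusted p = 0.0011). VTC5, which resembles VTC2, went the other way at Schluchsee, up into June (1.03, SE 0.18, adjusted p = 1.6e-05) and down into July (-0.72, SE 0.18, adjusted p = 0.0022).

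Thiol-based peroxidases, which reduce peroxides with thioredoxin or glutathione, were counted in the same way. Of 11 loci for peroxiredoxins and their reductants 9 were measured, and the steps at Wiesloch gave 1, 1 and 4 calls and those at Schluchsee 1, 1 and 1. Such counts of 9 loci are not far from the 7.77% to 42.0% of all contigs called in the Wiesloch steps and the 7.67% to 17.0% in those at Schluchsee, and nothing is read from them. NTRC, a plastid thioredoxin reductase that reduces 2-Cys peroxiredoxins, was in each of these counts but that of the Schluchsee step into September. Its median at Wiesloch was 107 CPM in June, 55.7 CPM in July (39.4 to 76.4) and 149 CPM in September (118 to 166), and at Schluchsee 79.7 CPM in June and 182 CPM in July (116 to 266). The sites did not overlap in July, where NTRC was higher at Schluchsee by 1.73 (SE 0.12, adjusted p = 8.2e-19), or 1.74 without the libraries that stood apart (adjusted p = 2.5e-16). 2CPA, a plastid 2-Cys peroxiredoxin, rose into September at Wiesloch (0.63, SE 0.10, adjusted p = 1e-06) and Schluchsee (0.34, SE 0.11, adjusted p = 0.038). Of 10 loci for glutathione synthesis and glutathione peroxidases 5 were measured. GSH1, which starts glutathione synthesis, fell into September at Wiesloch (-0.58, SE 0.17, adjusted p = 0.0046), as did the peroxidases GPX5 (-0.57, SE 0.11, adjusted p = 9.4e-06) and GPX6 (-0.73, SE 0.20, adjusted p = 0.0029), while GSH2, which completes glutathione, rose (0.31, SE 0.11, adjusted p = 0.021), a call lost without the libraries that stood apart. At Schluchsee GPX6 (0.67, SE 0.21, adjusted p = 0.038) and GPX1 (0.50, SE 0.15, adjusted p = 0.026) rose in that step, and in September GPX6 was higher there than at Wiesloch by 1.63 (SE 0.22, adjusted p = 2.1e-07).

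Further relatives of the enzymes and the photorespiration genes completed the lists. Of 11 other ascorbate peroxidase, catalase and dismutase loci 6 were measured, and at most 2 of them were called in any comparison. The comparisons with 2 were June to July at Wiesloch (25.1% of all contigs called) and May to June at Schluchsee (14.1%). Between the sites in July 1 was called (46.1%). Nothing is read from these counts. FSD1, an iron superoxide dismutase, was higher at Schluchsee in May by 2.05 (SE 0.32, adjusted p = 2.2e-05). Its median was 13.3 CPM (3.54 to 23.7) against 2.70 CPM (1.32 to 6.45) at Wiesloch. CSD1 and CSD2 were lower there in that month. As given above, the call of the leading CSD1 contig was lost without any of 12 trees and in further settings. That of CSD2 was lost with clock time as a covariate. FSD3, another iron enzyme, was not called between the sites in May. From June to July at Wiesloch FSD1 gave 1.0 (SE 0.34, adjusted p = 0.022), a call lost without the libraries that stood apart (0.83, adjusted p = 0.1). CAT3 rose into June at Schluchsee (1.60, SE 0.50, adjusted p = 0.022), over a range of 66.0 to 1370 CPM in that month. Of 13 photorespiration loci 10 were measured, and at Wiesloch 4 fell and 0 rose into July, where 12.8% of all contigs fell and 12.3% rose. Into September 5 rose and 1 fell, where 20.2% of all contigs rose and 21.7% fell, and nothing is read from counts of so few loci. HPR1, a peroxisomal hydroxypyruvate reductase, fell into July at Wiesloch (-0.47, SE 0.13, adjusted p = 0.003), and GLYK, the glycerate kinase that ends the pathway, fell into September there (-0.53, SE 0.10, adjusted p = 1.3e-05). The mesophyll markers RCA (-0.54, SE 0.13, adjusted p = 0.00065) and RBCS1A (-0.54, SE 0.14, adjusted p = 0.0033) fell beside them in July, and the part of this in the enzymes' changes was not tested.

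By Pearson's r over the 16 group means, the contigs of other loci most like the contig with the highest CPM of each family were searched among all contigs. For CAT2 they were isotig38074 (AT5G58200, r = 0.957), isotig22546 (0.948) and isotig19609 (0.939). For GR2 they were GAEK01009103.1 (AT1G63780, 0.952), isotig47999 (0.950) and GAEK01035252.1 (AT4G21490, 0.943). For CSD2 they were isotig103657 (0.926), isotig11002 (AT1G35190, 0.923) and GAEK01013267.1 (AT5G52960, 0.922), and for APX1 isotig42156 (AT5G13450, 0.928), isotig67629 (AT5G54100, 0.925) and isotig58427 (AT1G15370, 0.925). Highest values of r among so many contigs describe only these means. For APX2, a search added after the values were seen gave isotig02020 (0.962), isotig02005 (0.951) and isotig02016 (0.946), whose numbers adjoin those of the APX2 contigs isotig02008 to isotig02014. Isotig02005 is annotated as a peroxisomal Lon protease (AT5G47040). It correlated with GAEK01022660.1 at r = 0.90 over the 75 libraries, fell at Wiesloch into September by 1.03 on the log2 scale (adjusted p = 7.7e-19), and had a July median of 121 CPM there. The other contig of that locus, GAEK01012870.1, correlated at 0.19 and fell by 0.35 (adjusted p = 0.00084). Whether isotig02005 shares sequence, and hence reads, with the APX2 contigs was not tested.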

How the data were processed

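RNA of needles was sequenced after TruSeq v2 library preparation, per the labels' protocols. The authors deposited whole-number counts per contig with annotation cells. The submitters' processing notes name CASAVA 1.7, Bowtie2 2.1, HTSeq and TAIR10, and settings, strand handling and the origin of the lowest values are not given in the sources used here. Lines were longer than the 80 header cells for 29654 contigs, so counts were read from the last 75 cells; 0 columns belonged to an unmapped sample. Every library had its group from its labels. Total counts of 18.54 M to 47.51 M limit precision mainly for the 8 contigs under 3 CPM.

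Contigs that passed filterByExpr (59177 of 59189) were fitted with edgeR 4.0.16 (R 4.3.3), TMM scaling and the quasi-likelihood test over 16 groups of provenance, site and month. Contrasts averaged the provenances, and p-values were adjusted by Benjamini-Hochberg over all contigs tested, with calls at 0.05. Provenances were tested on counts summed per tree (25 trees, 57846 contigs). Log2 fold changes have their standard errors (SE). The p-values of month steps treat libraries of a tree as independent. Alternatives were the tree as a block, DESeq2 1.42.0, lowest values set to 0, clock time as a covariate (62 libraries), libraries left out and counts summed per locus. The block follows the tree labels. Among libraries of other months at the same site and provenance, all 72 libraries with another library of their tree correlated best with one of them. Of 89 same-tree pairs 87 had r over 0.1. For the 4 libraries that stood apart the pairing is less certain (for example, 0.11 against 0.03 for Cameron Lake tree 16 of Wiesloch in July). No libraries were duplicates (140 pairs within groups). The scripts were tested on simulated counts with known changes, drawn without tree effects and without a floor of lowest values.

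Named were the leading contig (highest mean count) of each locus, up to 5 further members with the smallest adjusted p per comparison, up to 3 loci of each other list with the largest called change, and the 3 contigs most like the most abundant contig of each family. Other contigs named were chosen after their values were seen. Members and lists were chosen with earlier results of these data known. Contig sequences were not used here.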

Additional observations from a re-analysis of the deposited data

Results flagged for a closer look

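Of the 80 sets of 8 to 10 libraries tested (10 leading contigs, 2 sites and 4 months), 9 held a library whose gap to the nearest other was large against the range of the set, where chance flags about 1 in 20. CAT1 gave 6 of them, each a library that stood above others mostly near the lowest values. At Wiesloch these were 8.57 CPM in Cameron Lake tree 13 in May (others 0.142 to 2.73 CPM) and 2.60 CPM in Cameron Lake tree 9 in July (others 0.0294 to 0.582 CPM). At Schluchsee Salmon Arm tree 13 was the highest in each month, at 0.539 CPM in May (others 0.0277 to 0.258), 4.73 CPM in June (others 0.0308 to 0.736), 4.00 CPM in July (others 0.0211 to 0.325) and 1.52 CPM in September (others 0.0221 to 0.552). The other 3 were APX1 at 191 CPM in Salmon Arm tree 15 of Schluchsee in September (others 275 to 345), MSD1 at 57.7 CPM in Salmon Arm tree 16 of Schluchsee in June (others 24.2 to 40.3) and GR1 at 199 CPM in Cameron Lake tree 9 of Wiesloch in July (others 122 to 159).

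The seasonal course differed between the sites for 5 leading contigs by edgeR's quasi-likelihood test of the interaction. The adjusted p was 8.5e-13 for APX2, 1.2e-05 for GR2, 0.014 for TAPX, 0.02 for CSD2 and 0.023 for CAT1. That test treats the libraries of a tree as independent. With the tree as a block these 5 also passed, and so did APX1 (0.018, against 0.054 without the block) and GR1 (0.0073, against 0.058). TAPX, CSD2 and CAT1 lost the call in the settings given above.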

How the results depend on the processing

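Of 81 called results of single contigs, 52 kept their call under every alternative run and 0 reversed. Member contigs named beyond the rule are not among the 81. With the tree as a block, the members called were 4 from May to June at Wiesloch (2 without it), 14 from June to July (8), 17 from May to June at Schluchsee (6) and 20 from June to July (11). A clock time term, on 62 libraries, left 0 calls from May to June at Wiesloch, 3 from July to September at Schluchsee, and 0 between the sites in May and 0 in June. The same libraries without the covariate gave 0 from May to June at Wiesloch, 1 and 0 between the sites in May and June, and 10 for month by site, against 16. These fits held only 3 libraries of Wiesloch in June and 6 of Schluchsee in May. Setting the lowest values to 0 gave 1 from May to June at Wiesloch. Leaving out the 3 libraries with a lowest value of 4 gave 2 from July to September at Schluchsee, and leaving out those apart from their tree gave 4 between the sites in May. Provenance on all 75 libraries as separate samples gave 10, in a fit that treats the libraries of a tree as independent. Apart from the tree block, whose shares are given above, the share of all contigs called under these alternatives is not given here. Whether the member counts moved with those of all contigs was not tested, and nothing about the enzymes is read from them.

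Leaving out each of 25 trees gave 1 to 3, 7 to 8 and 17 to 22 calls for the Wiesloch steps and 6 to 8, 10 to 13 and 1 to 6 for the Schluchsee steps. It gave 4 to 7, 0 to 7, 13 to 16 and 8 to 10 between the sites from May to September, 14 to 18 for month by site, 0 to 0 for month by provenance and 2 to 3 for provenance. The step into September at Schluchsee had 1 call without Salmon Arm tree 13 and 3 without any of Cameron Lake trees 10 and 15 or Salmon Arm trees 12 and 14. The May site difference had 4 without Cameron Lake tree 13 of Wiesloch. The June site difference had 0 without Cameron Lake tree 11 or Salmon Arm tree 16 of Schluchsee, or Cameron Lake tree 9 or Salmon Arm tree 13 of Wiesloch. For these fits, too, the share of all contigs called is not given here.

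No paired analysis was possible for sites and provenances because each tree has 1 site and 1 provenance. Site, month and sampling day cannot be told apart. Contigs under 3 CPM rest on fewer reads than the others, and those that averaged 0.568 CPM or less lie closest to the lowest values.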
